A study of Mus musculus with 11 samples.

Results

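Cholesterol and fatty acids are made from acetyl-CoA in the cytosol and the endoplasmic reticulum, and 30 genes of these pathways were followed in fibroblasts from unwounded mouse skin and from wounds. The genes were taken by name from the 47643 gene symbols of the expression table, and all 30 were found there. They comprise 7 genes of the mevalonate pathway, 11 of the branch that leads from farnesyl diphosphate to cholesterol, 5 that control transcription of the pathway, 1 sterol transfer gene and 6 of fatty acid synthesis and modification. Fibroblasts came from normal back skin (NS) and from full-thickness excisional wounds 5 days after injury (5dw), in wild-type (WT) mice and in K14-Act (Act) mice aged 9 to 12 weeks. Act mice express INHBA, which encodes the subunit of activin A, under control of the keratin 14 promoter, so the transgene is driven in keratinocytes. All mice had a mixed background of CD-1 and C57Bl/6, and the controls were WT littermates. The sort kept live cells with CD140a, the receptor encoded by Pdgfra, and removed cells with CD45, CD11b or F4/80 and, per the labels, CD3. Each library pooled the RNA of 3 animals. There were 3 libraries each of WT NS, Act NS and WT 5dw and 2 of Act 5dw, numbered 1 and 3.

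The enzymes of the mevalonate pathway build isoprenoid units that are joined to squalene, closed to lanosterol and trimmed to cholesterol. Transcription of most of these enzymes is switched on by the sterol regulatory element binding proteins (SREBPs), which Scap carries out of the endoplasmic reticulum when sterols are low and which the Insig proteins hold back when sterols are high. SREBP-2, from Srebf2, is known mainly for the sterol genes, and SREBP-1, from Srebf1, mainly for fatty acid synthesis. In skin, sebaceous glands and epidermis are known for high lipid synthesis, and dermal fibroblasts also make cholesterol for their membranes.

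Values are RPKM, read numbers relative to transcript length and sequencing depth, and the mapped totals behind them, as worked out here from the RPKM values, ran from 18649322 to 39702139 reads per library. Differences are log2 fold changes (log2FC) on the log2(RPKM + 0.5) scale with their standard error (SE), from limma-trend over the 11979 genes that reached 1 RPKM in 2 or more libraries. Adding 0.5 understates the change of genes with low RPKM. A gene was called where its Benjamini-Hochberg adjusted p was under 0.05. Over all tested genes the median log2FC was -0.399 for WT 5dw against WT NS and -0.306 for Act 5dw against Act NS, so counts are also given after median-ratio scaling of the libraries, which brings that median to about 0. All 30 genes passed the filter, Lss and Tm7sf2 through NS alone, since their highest values in 5dw were 0.837 and 0.750 RPKM. Pdgfra, the sorted marker, was at 49.8 to 65.3 RPKM in NS and at 29.6 to 37.3 in 5dw. It was itself called lower in both genotypes, with log2FC of -0.63 in WT (adjusted p = 0.0025) and -0.80 in Act (adjusted p = 0.00182), and after scaling in Act alone (-0.44, adjusted p = 0.0276, against -0.18 and 0.269 in WT). Markers of cells that the sort should lack were also present: Cd3e, a T cell gene, rose from 2.94 to 33.9 RPKM in NS to 55.5 to 104.7 in 5dw (log2FC 3.37, adjusted p = 0.00238, in WT and 2.44, adjusted p = 0.0284, in Act), although the labels name CD3 among the markers of removed cells, which the methods of the study do not. Pecam1, an endothelial gene, rose from 3.39 to 5.66 RPKM in NS to 11.5 to 13.99 in 5dw, by 1.40 (adjusted p = 1.10e-04) and 1.45 (adjusted p = 2.75e-04) on the log2 scale. Tek, of the same list, was lower, at 13.9 to 29.4 RPKM in NS and 4.74 to 10.2 in 5dw, and the 4 tested endothelial genes had 1 call in each direction in WT and 2 higher and 1 lower in Act. Of 5 tested immune genes 2 were higher and 0 lower in WT and 1 was higher and 1 lower in Act. Of all tested genes 9.45% were higher and 48.8% lower in WT, and 9.04% and 36.5% in Act. Ptprc, which encodes CD45, was at 0.0498 RPKM or less in all libraries. The part of these cells in the results was not tested. Mouse Inhba was at 36.3 to 91.1 RPKM in Act NS and at 3.40 to 6.93 in WT NS, and whether that includes transgene reads was not tested.

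Promoter sequences are shown first for 6 genes on which the results turn, as RefSeq gives them for GRCm38.p6, 5′ to 3′ on the strand of the gene and covering the 250 bases before the transcription start. SREBPs bind sterol regulatory elements (SRE, searched as TCACNCCAC), and they are known to work with NF-Y at CCAAT boxes (CCAAT) and with Sp1 at GC boxes (GGGCGG). Capitals mark SRE and CCAAT matches on either strand, so ATTGG is a CCAAT box on the other strand. Hmgcs1, which was called in neither genotype, is shown because its window alone among those of 24 genes held the SRE letters. Idi1, Msmo1, Sc5d and Insig2 are examples of genes that were lower in 5dw of both genotypes and hold CCAAT boxes. Pmvk, Tm7sf2, Srebf1 and Srebf2 also meet these terms and are not shown. Elovl6 is shown because it was lower too and holds none of the motifs.
Hmgcs1: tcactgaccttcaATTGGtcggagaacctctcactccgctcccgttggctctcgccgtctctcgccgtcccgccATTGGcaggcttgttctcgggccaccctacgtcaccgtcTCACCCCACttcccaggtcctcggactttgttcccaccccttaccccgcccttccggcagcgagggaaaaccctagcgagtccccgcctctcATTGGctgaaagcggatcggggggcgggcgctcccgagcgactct
Idi1: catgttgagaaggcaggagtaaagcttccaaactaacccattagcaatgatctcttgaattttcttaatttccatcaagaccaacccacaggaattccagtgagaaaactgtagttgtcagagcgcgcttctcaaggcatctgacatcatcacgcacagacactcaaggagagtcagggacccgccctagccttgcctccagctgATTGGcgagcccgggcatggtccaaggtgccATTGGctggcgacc
Msmo1: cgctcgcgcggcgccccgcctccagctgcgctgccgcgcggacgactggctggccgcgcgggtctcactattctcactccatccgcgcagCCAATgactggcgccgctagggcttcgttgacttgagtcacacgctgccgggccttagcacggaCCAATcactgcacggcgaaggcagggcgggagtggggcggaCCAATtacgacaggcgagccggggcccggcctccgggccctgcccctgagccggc
Sc5d: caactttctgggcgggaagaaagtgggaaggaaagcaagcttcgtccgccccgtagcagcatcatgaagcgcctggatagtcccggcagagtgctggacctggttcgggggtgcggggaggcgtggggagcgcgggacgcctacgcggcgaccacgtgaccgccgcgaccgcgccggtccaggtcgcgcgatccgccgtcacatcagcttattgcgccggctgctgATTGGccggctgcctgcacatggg
Insig2: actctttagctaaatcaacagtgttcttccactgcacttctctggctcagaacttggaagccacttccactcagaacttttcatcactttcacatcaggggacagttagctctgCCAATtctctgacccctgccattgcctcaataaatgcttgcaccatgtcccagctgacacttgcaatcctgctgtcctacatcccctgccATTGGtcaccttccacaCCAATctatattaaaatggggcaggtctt
Elovl6: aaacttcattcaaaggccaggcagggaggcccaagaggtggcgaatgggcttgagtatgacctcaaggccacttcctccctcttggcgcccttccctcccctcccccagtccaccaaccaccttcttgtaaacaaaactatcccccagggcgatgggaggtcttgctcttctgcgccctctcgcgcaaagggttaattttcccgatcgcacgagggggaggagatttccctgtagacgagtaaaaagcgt

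These windows are chr13:119690101-119690350 (plus strand) for Hmgcs1, chr13:8885356-8885605 (plus strand) for Idi1, chr8:64733579-64733828 (minus strand) for Msmo1, chr9:42264301-42264550 (minus strand) for Sc5d, chr1:121332590-121332839 (minus strand) for Insig2 and chr3:129532136-129532385 (plus strand) for Elovl6. Insig2 has 2 other RefSeq starts, with windows at chr1:121327679-121327928 and chr1:121328025-121328274, and these hold 0 CCAAT boxes. The SRE of Hmgcs1 began 137 bases before the start, between CCAAT boxes at 176 and 45 bases. In Idi1 the CCAAT boxes lay 45 and 14 bases before the start, and Msmo1 had them at 160, 96 and 55 bases. Of the 30 genes, 24 had a promoter in the RefSeq table, and Fdft1, Fdps, Scd1, Scd2, Sqle and Stard4 did not. A CCAAT box stood in the window of 19 of these 24 genes (79.17%), compared with 37.49% of all 27025 genes in the table. GC boxes were found for 20 of 24 (83.33%, all genes 35.36%), the E-box CACGTG for 5 (20.83%, all genes 6.86%) and the SRE for 1 (4.17%, all genes 1.22%). Both strands were searched, and a gene with several starts counted once, if any of its windows held the motif. Counted per window, a CCAAT box stood in 62.5% of the 32 windows of these genes and in 33.85% of all 32851. For GC boxes these shares were 71.88% and 32.74%. The 27025 genes were not limited to the tested genes, so the shares do not compare the 24 genes with other expressed genes. These letters describe the windows and show neither binding nor its absence.

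To see how the pathway differed between unwounded skin and wounds, fibroblasts from 5dw were compared with those from NS in each genotype. In WT mice 19 of the 30 genes were lower in 5dw (63.3%) and 0 were higher, where 48.8% of all tested genes were lower and 9.45% were higher. Their median log2FC was -0.914. In Act mice 11 of 30 were lower (36.7%) and 0 were higher, where 36.5% of all tested genes were lower and 9.04% higher, and the median was -0.686. The share called in WT was thus above that of all genes, and the share in Act was near it. The 19 include Lss and Tm7sf2 and the 11 include Tm7sf2, which passed the filter through NS alone and so could hardly have been other than lower. Same-numbered libraries of WT NS and WT 5dw deviated together from their group means only weakly (correlations of 0.109 to 0.188). These values do not establish a pairing. With the replicate number as a further term of the fit (the replicate block) 25 of 30 were lower in WT (all genes 50.9%). In Act 15 were lower with the block (all genes 38%). After median-ratio scaling 10 of 30 were lower in WT (33.3%, all genes 22.2%) and 2 were higher (6.67%, all genes 22.4%), and in Act 7 were lower (23.3%, all genes 20.8%) and 0 were higher (all genes 19.9%). The scaled medians were -0.543 and -0.366. By list, calls in WT were 5 of 7 mevalonate pathway genes, 6 of 11 sterol branch genes, 4 of 5 SREBP control genes, 0 of 1 for sterol transfer and 4 of 6 for fatty acid synthesis. In Act the numbers were 2 of 7, 4 of 11, 3 of 5, 0 of 1 and 2 of 6. The counts leaned on single libraries: in WT there were 12 without WT NS replicate 3 (40%, all genes 40.4%) and 12 without WT 5dw replicate 2 (all genes 41.4%), both near the background. In Act, leaving out Act NS replicate 1 gave 22 (73.3%, all genes 41.2%), Act NS replicate 3 gave 7 (23.3%, all genes 30%), and Act 5dw replicate 1 gave 4 (13.3%, all genes 26.7%), the last pair below the background. The lone library left in that last fit was assumed to vary like the other groups. The lists were not tested as sets.

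**Figure D1:**
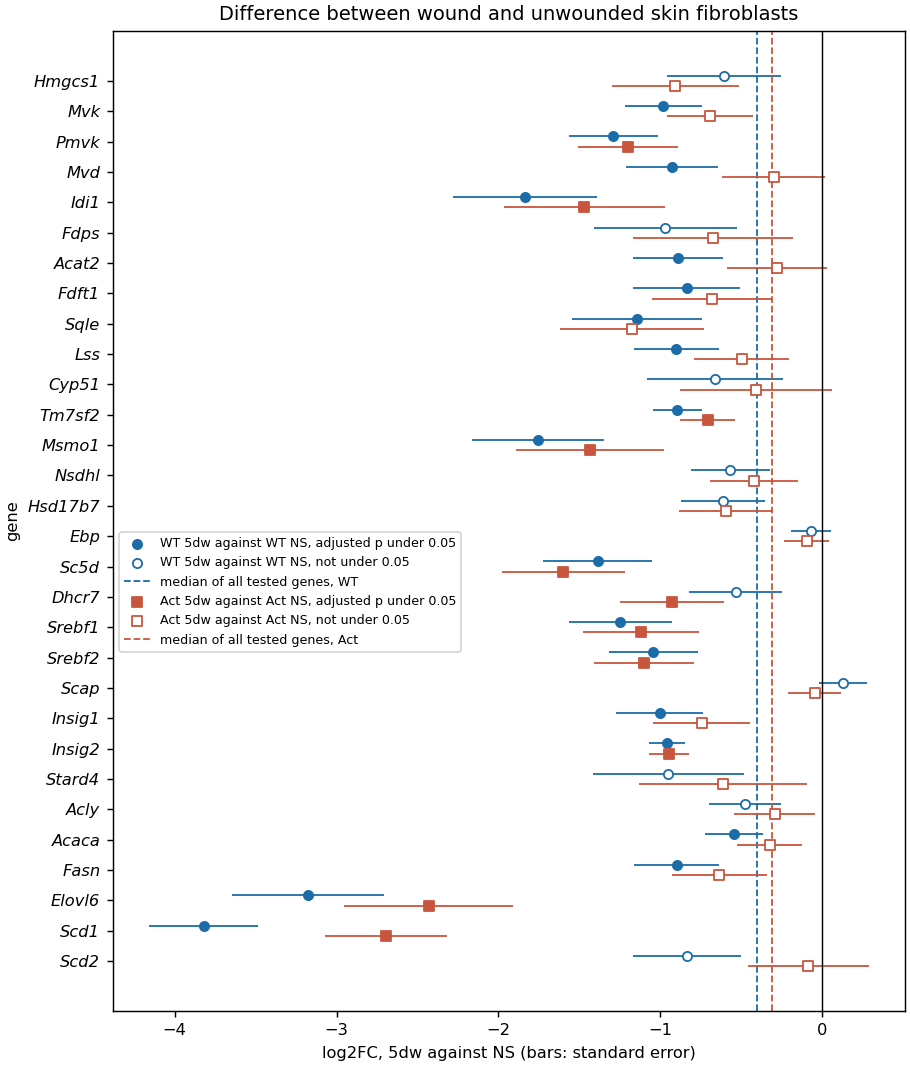
Log2FC of each gene between 5dw and NS (horizontal axis, log2 scale) for WT (blue circles) and Act (red squares), with bars for the SE, filled symbols for an adjusted p under 0.05, and dashed lines at the median of all tested genes (-0.399 and -0.306). Scd1 and Elovl6 lie far to the left of the rest, and Ebp and Scap lie near 0.

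Without overlap, all 5 wound libraries lay below all 6 NS libraries in RPKM for 11 of the 30 genes (36.7%), against 38.9% of all tested genes, so this share was near the background. These genes were Mvk and the 10 that were called lower in both genotypes. The WT and Act comparisons share no libraries, but the spread is estimated over all 11. None of the 30 had every wound library above NS.

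Scd1 and Elovl6, a fatty acid desaturase and an elongase, showed the largest differences among the 30. Scd1 (chromosome 19, 44394455 to 44407879, GENCODE M21 on GRCm38) encodes stearoyl-CoA desaturase, which makes monounsaturated fatty acids. Its level was 75.7, 132 and 146 RPKM in WT NS and 28.6, 68.5 and 68.6 in Act NS. In the wounds it was 7.31, 8.15 and 7.23 RPKM in WT and 9.16 and 6.12 in Act. Every wound library was thus far below every NS library, and the wound values of the genotypes overlapped. The log2FC was -3.82 in WT (SE 0.34, adjusted p = 1.21e-05), or 14.1-fold lower, and -2.70 in Act (SE 0.38, adjusted p = 3.25e-04), or 6.48-fold lower. Elovl6 (chromosome 3, 129532355 to 129638495) elongates the saturated fatty acids that Scd1 then desaturates. It stood at 10.6, 24.8 and 27.8 RPKM in WT NS and at 4.01, 16.3 and 15.7 in Act NS. Wound libraries held 1.75, 1.61 and 1.76 RPKM in WT and 1.45 and 1.52 in Act. Again the groups did not overlap, and Act NS replicate 1 lay closest to the wounds. The log2FC was -3.18 in WT (SE 0.47, adjusted p = 2.83e-04) and -2.43 in Act (SE 0.52, adjusted p = 0.00358).

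Scd2, the paralog of Scd1 that lies next to it on chromosome 19 (44293674 to 44306864), was near the threshold in WT and not called in Act. Its RPKM was 54.2, 36.3 and 106 in WT NS, 25.8, 36.5 and 49.5 in Act NS, 37.0, 31.3 and 31.2 in WT wounds, and 33.7 and 34.1 in Act wounds. The wound values fell inside the range of NS, and the highest value was that of WT NS replicate 3. The log2FC was -0.84 in WT (SE 0.33, adjusted p = 0.0509) and -0.09 in Act (SE 0.37, adjusted p = 0.873), and the WT value was called in 6 of 23 alternatives, the replicate block among them (SE 0.28, adjusted p = 0.027). In NS the mean of Scd1 (86.5 RPKM) was above that of Scd2 (51.3), while in 5dw Scd2 (33.4) was above Scd1 (7.59). Scd1 shared 8.14% and Scd2 6.81% of their 31-base sequences with other genes, chiefly Scd3, which was itself at 3.29 RPKM or less in every library. The remaining genes of this list act before the desaturases. Acly, which makes cytosolic acetyl-CoA from citrate, had a log2FC of -0.48 in WT (SE 0.22, adjusted p = 0.0892) and -0.29 in Act (SE 0.25, adjusted p = 0.359), and with the block it was called in WT (SE 0.18, adjusted p = 0.038). Acaca, acetyl-CoA carboxylase, fell by 0.54 on the log2 scale in WT (SE 0.18, adjusted p = 0.0231) and had -0.32 in Act (SE 0.20, adjusted p = 0.210), but 33.35% of its 31-base sequences also occur elsewhere, mainly in Gm5182. Fasn, the fatty acid synthase, fell by 0.90 in WT (SE 0.26, adjusted p = 0.0134) and had -0.63 in Act (SE 0.30, adjusted p = 0.101). After scaling, the log2FC of Acly, Acaca and Fasn were -0.02, -0.15 and -0.46 in WT, and none of these was called. The calls of Acaca and Fasn were also lost without WT NS replicate 3 (adjusted p = 0.0921 and 0.0583) or WT 5dw replicate 2 (0.081 and 0.0513), and that of Acaca without WT 5dw replicate 3 (0.0514).

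**Figure D2:**
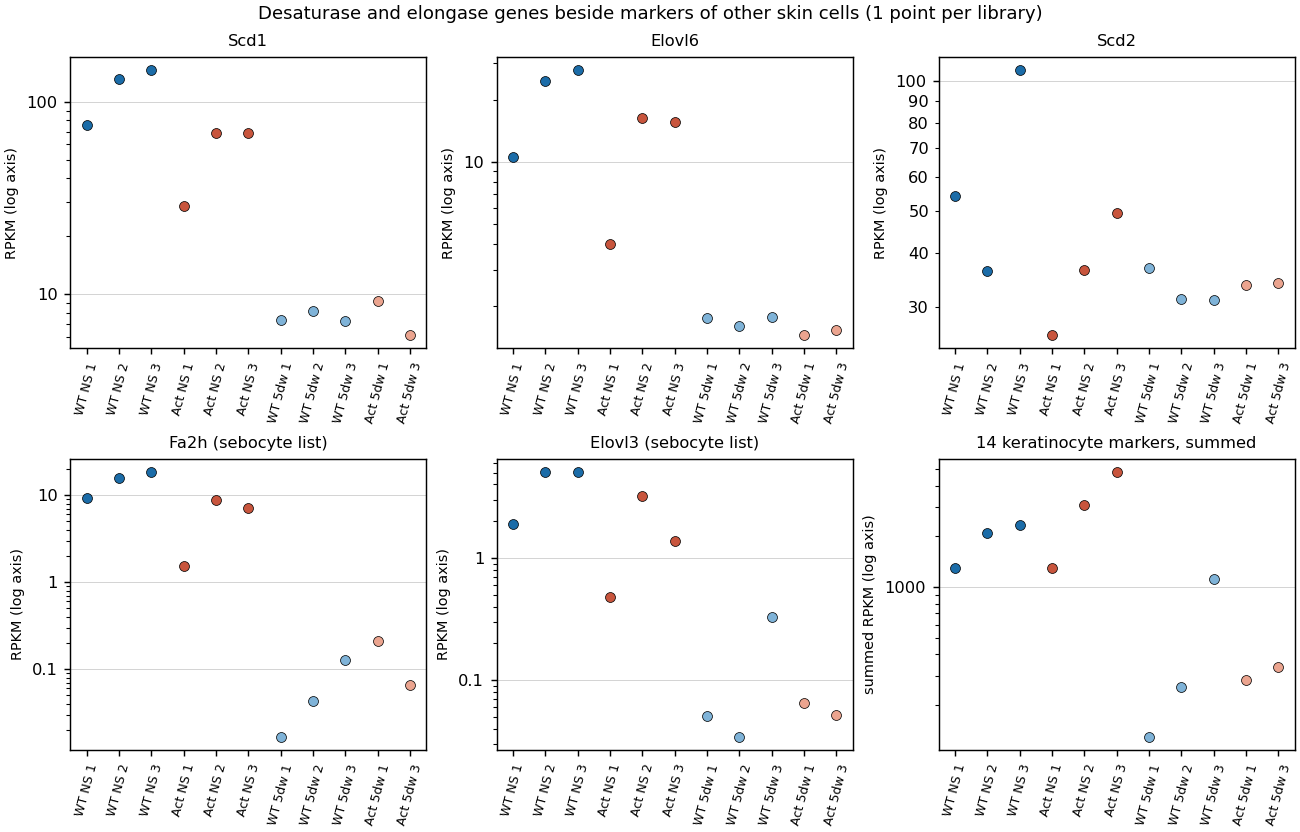
RPKM of Scd1, Elovl6, Scd2 and 2 genes of the sebocyte list, and the summed RPKM of 14 keratinocyte markers, in each of the 11 libraries (1 point each, logarithmic vertical axes). Scd1 is at 6.12 to 9.16 RPKM in the wounds and 28.6 to 146 in NS, and Fa2h and Elovl3, which entered the test through NS alone, are under 1 RPKM in the wounds, whereas the keratinocyte sum of WT 5dw replicate 3 reaches 1116.

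Most sebocyte and keratinocyte markers were lower in 5dw as well, while Cd3e and Pecam1 were higher, as given above. Sebaceous gland cells are known for high Scd1 themselves, and among 12 sebocyte genes 9 were tested. In WT 8 of these 9 were lower in 5dw and in Act 6 of 9, but 6 of the 9 (Scd3, Elovl3, Awat1, Far2, Fa2h and Cidea) were under 1 RPKM in every wound library and passed the filter through NS alone. Those genes had to be lower, and the counts support nothing. Soat1, a cholesterol acyltransferase on this list, was at 3.37 to 8.59 RPKM in NS and 6.27 to 7.38 in 5dw and was called lower in neither genotype. The summed level of the whole sebocyte list was 97.2 to 153 RPKM in WT NS, 72.8 to 224 in Act NS, 24.6 to 28.3 in WT wounds, and 22.9 and 25.6 in Act wounds. Fa2h, which hydroxylates fatty acids, lay at 9.17, 16.0 and 18.5 RPKM in WT NS, at 1.51, 8.79 and 7.21 in Act NS, and at 0.211 or less in all wounds. Cidea, a lipid droplet gene, was at 0.754 to 9.02 RPKM in NS and at 0.0444 or less in 5dw, and it was listed at 0 in Act 5dw replicate 3. Awat1 was listed at 0 in 2 of the WT 5dw libraries. Of 14 keratinocyte markers 12 were called lower in each genotype (85.7%, all genes 48.8% and 36.5%), Krt15 among them through NS alone, and 10 after scaling. Their sum was 1304 to 2339 RPKM in WT NS, 1294 to 4816 in Act NS, 131 to 1116 in WT wounds, and 282 and 339 in Act wounds. The sort for CD140a should remove both cell types. In WT 5dw replicate 3 Krt14 (528 RPKM) was higher than in any NS library, at most 493, but the sum of the list, 1116 RPKM, was below every NS sum and its median, 24.3, below the NS medians of 48.9 to 224.6. Scd1 there was 7.23 RPKM, close to the other wounds. Krt79, which marks upper hair follicle and sebaceous duct cells, was at 3.68 RPKM in that library and at 41.7 to 185 in NS. Adipocyte genes were low, with a sum of 8.47 to 10.3 RPKM in NS and 5.73 to 13.3 in 5dw. The part of other cells in the lower Scd1 and Elovl6 was not tested, and in these bulk libraries fewer cells of a type and less RNA per cell cannot be told apart.

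In the mevalonate pathway, Idi1 and Pmvk were lower in both genotypes. Idi1 (chromosome 13, 8885501 to 8892451) interconverts the isoprenoid building blocks. It was at 10.2, 28.7 and 25.6 RPKM in WT NS and at 7.57, 12.9 and 25.96 in Act NS. Wounds had 4.35, 4.24 and 7.33 RPKM in WT and 5.17 and 4.15 in Act. The lowest NS library, Act NS replicate 1, lay only just above the highest wound library, WT 5dw replicate 3. The log2FC was -1.84 in WT (SE 0.45, adjusted p = 0.00508) and -1.47 in Act (SE 0.50, adjusted p = 0.0327). The call in Act was lost after median-ratio scaling (-1.14, adjusted p = 0.0802) and when any of Act NS replicate 2, Act NS replicate 3, Act 5dw replicate 1 or Act 5dw replicate 3 was left out (adjusted p = 0.061, 0.0969, 0.0878 and 0.157). It shares 18.8% of its 31-base sequences, mainly with Gm13502. Pmvk (chromosome 3, 89454541 to 89469013), phosphomevalonate kinase, was at 4.63, 8.26 and 7.50 RPKM in WT NS and at 3.27, 6.18 and 7.75 in Act NS. Its wound values were 2.5, 2.004 and 2.77 RPKM in WT and 1.99 and 2.16 in Act. The groups did not overlap, and the wound libraries were close to each other. The log2FC was -1.29 in WT (SE 0.28, adjusted p = 0.00245) and -1.20 in Act (SE 0.31, adjusted p = 0.00889), the latter lost without Act 5dw replicate 1 (adjusted p = 0.0553).

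Mvk, mevalonate kinase, had a log2FC of -0.98 in WT (SE 0.24, adjusted p = 0.0052) and -0.69 in Act (SE 0.27, adjusted p = 0.0542), also without overlap between the tissues. Mvd, which makes isopentenyl diphosphate, and Acat2, which joins the first acetyl-CoA units, were lower in WT by 0.93 and 0.89 on the log2 scale, but their values in Act were -0.30 (adjusted p = 0.461) and -0.28 (adjusted p = 0.486). Both WT calls were lost after scaling (adjusted p = 0.0992 and 0.144), without WT NS replicate 3 (0.0715 and 0.0707) and without WT 5dw replicate 2 (0.0606 and 0.0673). Acat2 shares 43.75% of its 31-base sequences with Acat3, so its reads are uncertain. Hmgcs1, the synthase at the entry of the pathway, and Fdps, which makes farnesyl diphosphate, were not called in either genotype, but with the replicate block Fdps was called in WT at -0.97 (SE 0.35, adjusted p = 0.0323). Hmgcs1 ranged from 28.2 to 84.5 RPKM in NS and from 18.6 to 44.1 in 5dw. It was the gene of this pathway with the highest level in both tissues. Fdps ranged from 7.17 to 33.1 RPKM in NS and from 8.31 to 13.9 in 5dw, and it shares 27.94% of its 31-base sequences, mainly with Gm43738.

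In the sterol branch Msmo1, Sc5d and Tm7sf2 were lower in both genotypes, and for the rest this was not so. Msmo1 (chromosome 8, 64718139 to 64733792) removes methyl groups from the sterol ring. Its RPKM was 3.51, 9.52 and 10.1 in WT NS and 2.61, 5.47 and 8.58 in Act NS. In the wounds it was 1.65, 1.39 and 2.24 in WT and 1.64 and 1.45 in Act. No wound library reached an NS library, although Act NS replicate 1 came near. The log2FC was -1.76 in WT (SE 0.41, adjusted p = 0.0041) and -1.43 in Act (SE 0.46, adjusted p = 0.0253). The call in Act was lost after scaling (-1.14, adjusted p = 0.0554) and without Act NS replicate 2, Act NS replicate 3, Act 5dw replicate 1 or Act 5dw replicate 3 (adjusted p = 0.0624, 0.0789, 0.086 and 0.12). Sc5d (chromosome 9, 42251595 to 42264256), a late sterol desaturase, was at 5.38, 10.7 and 11.7 RPKM in WT NS and at 4.22, 7.38 and 12.1 in Act NS. Wound levels were 2.97, 2.64 and 3.62 RPKM in WT and 2.07 and 2.06 in Act. Here the Act wounds lay below the WT wounds as well as below NS. The log2FC was -1.39 in WT (SE 0.34, adjusted p = 0.00529) and -1.60 in Act (SE 0.38, adjusted p = 0.00609). Tm7sf2 (chromosome 19, 6062821 to 6068373), a sterol reductase, was weakly expressed, at 1.72, 1.22 and 1.78 RPKM in WT NS and 1.20, 1.49 and 1.46 in Act NS. It was at 0.665, 0.630 and 0.525 RPKM in WT wounds and at 0.559 and 0.750 in Act wounds. Its NS libraries were close to each other, unlike those of most genes here. It entered the test through NS alone, which largely fixed its direction, so its log2FC of -0.89 in WT (SE 0.15) and -0.71 in Act (SE 0.17) are given as a description. Of its 31-base sequences 12.86% are found elsewhere, mainly in its neighbour Vps51.

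Fdft1, Sqle and Lss, which make squalene, its epoxide and lanosterol, were lower in WT with log2FC of -0.84, -1.14 and -0.90 (adjusted p = 0.0489, 0.0296 and 0.0129). In Act they had -0.68, -1.18 and -0.50 (adjusted p = 0.155, 0.0515 and 0.188). The WT calls of these 3 genes were lost after scaling (adjusted p = 0.287, 0.133 and 0.0622), without WT NS replicate 3 (0.185, 0.116 and 0.0559) and without WT 5dw replicate 2 (0.139, 0.0898 and 0.0537). Fdft1 was called in 11 of 23 alternatives and Sqle in 15, and Fdft1 also lost its call without WT NS replicate 2, Act NS replicate 2 or any of the other 4 libraries of 5dw (adjusted p = 0.059 to 0.103) and Sqle without WT NS replicate 2 (0.0869) or WT 5dw replicate 1 (0.0707). Lss too entered the test through NS alone. Dhcr7, a reductase of the last steps, had -0.53 in WT (adjusted p = 0.133, with the replicate block 0.0415) and -0.93 in Act (SE 0.32, adjusted p = 0.0366). Scaling ended that call in Act (adjusted p = 0.0997), as did leaving out Act NS replicate 2 (0.0827), Act NS replicate 3 (0.112), Act 5dw replicate 1 (0.154) or Act 5dw replicate 3 (0.105). Cyp51, Nsdhl and Hsd17b7, which act on lanosterol and its products, had log2FC between -0.66 and -0.41 in both genotypes and were not called, though with the block Nsdhl (-0.57, adjusted p = 0.0201) and Hsd17b7 (-0.61, adjusted p = 0.0305) were called in WT. A call in 1 genotype and not in the other does not show a difference between them, and the interaction values follow further on. Ebp, the sterol isomerase, hardly moved, and it is named with Scap after their values had been seen. It was at 11.2, 12.1 and 12.3 RPKM in WT NS, 10.1, 12.1 and 12.4 in Act NS, 11.2, 10.1 and 12.7 in WT wounds, and 10.3 and 11.2 in Act wounds. All 11 values lay within 10.1 to 12.7 RPKM. Its log2FC was -0.07 in WT (SE 0.12, 95% interval -0.34 to 0.20) and -0.10 in Act (SE 0.14, interval -0.40 to 0.21), and after median-ratio scaling the WT value was 0.37 (adjusted p = 0.0135), the opposite direction.

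Among the genes that control the pathway, Srebf1, Srebf2 and Insig2 were lower in both genotypes. Srebf1 (chromosome 11, 60199089 to 60222581) was at 23.3, 10.3 and 23.7 RPKM in WT NS and at 12.0, 13.4 and 19.8 in Act NS. In 5dw it was at 8.96, 6.22 and 6.76 RPKM in WT and 5.06 and 8.31 in Act. WT NS replicate 2 was the lowest NS library and lay closest to the wounds. The log2FC was -1.25 in WT (SE 0.32, adjusted p = 0.00658) and -1.12 in Act (SE 0.36, adjusted p = 0.0248). Srebf2 (chromosome 15, 82147181 to 82205379) was at 24.2, 25.6 and 34.3 RPKM in WT NS and at 15.2, 22.3 and 37.4 in Act NS. Wound libraries held 14.2, 11.3 and 14.3 RPKM in WT and 9.32 and 12.2 in Act. Again there was no overlap, by a small margin at Act NS replicate 1. The log2FC was -1.04 in WT (SE 0.28, adjusted p = 0.00772) and -1.10 in Act (SE 0.31, adjusted p = 0.0136). After scaling, Srebf2 had -0.60 in WT (adjusted p = 0.0624) and Srebf1 had -0.78 in Act (adjusted p = 0.0867), so those calls were lost. Without Act 5dw replicate 1 neither was called in Act (adjusted p = 0.197 for Srebf1 and 0.104 for Srebf2), and Srebf1 was not called there without Act NS replicate 3 (0.0772).

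Insig2 (chromosome 1, 121304353 to 121332589) differed most evenly. It was at 9.39, 10.4 and 10.8 RPKM in WT NS and at 9.35, 10.99 and 10.03 in Act NS. In the wounds it was at 5.11, 5.40 and 4.51 RPKM in WT and 4.99 and 5.01 in Act. Each tissue formed a tight group with a wide gap between them. The log2FC was -0.96 in WT (SE 0.11, adjusted p = 6.90e-05) and -0.95 in Act (SE 0.13, adjusted p = 2.24e-04), and after scaling it was -0.53 (adjusted p = 0.00135) and -0.62 (adjusted p = 0.00133). Its paralog Insig1 (chromosome 5, 28071363 to 28078662), which is itself known as an SREBP target, was at 23.0, 36.1 and 33.1 RPKM in WT NS and at 16.6, 21.7 and 35.6 in Act NS. Its wound values were 14.4, 12.1 and 18.7 RPKM in WT and 14.4 and 13.2 in Act. Here WT 5dw replicate 3 lay above Act NS replicate 1, so the tissues overlapped. The log2FC was -1.004 in WT (SE 0.27, adjusted p = 0.0083, after scaling 0.0864) and -0.74 in Act (SE 0.30, adjusted p = 0.0633). Scap, the escort of the SREBPs, was at 8.13 to 11.7 RPKM in NS and at 8.57 to 11.5 in 5dw. Its log2FC was 0.13 in WT (SE 0.15, 95% interval -0.20 to 0.45) and -0.05 in Act (SE 0.17, interval -0.41 to 0.32), and after scaling it was 0.57 in WT (adjusted p = 0.00509). Stard4, which carries cholesterol between membranes, was at 1.89, 4.60 and 6.36 RPKM in WT NS, 1.15, 3.35 and 5.88 in Act NS, 2.19, 1.35 and 1.83 in WT wounds, and 1.98 and 1.54 in Act wounds. The wounds lay at the low end of a wide NS range, and the log2FC of -0.95 in WT (SE 0.46, adjusted p = 0.0993) and -0.61 in Act (SE 0.52, adjusted p = 0.355) were not called.

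**Figure D3:**
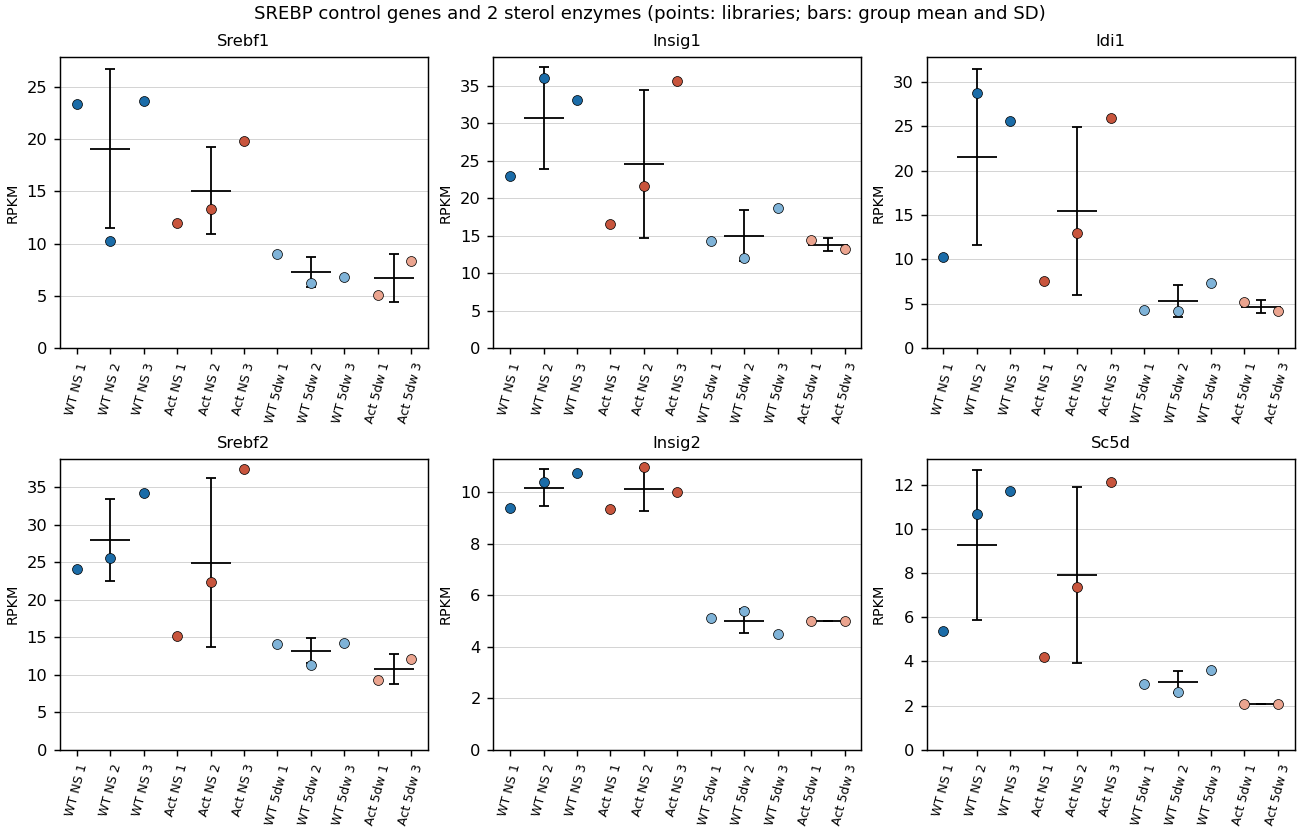
RPKM of Srebf1, Srebf2, Insig1, Insig2, Idi1 and Sc5d in each library (vertical axes from 0), with the mean and SD of each group (n = 3, and n = 2 for Act 5dw). Insig2 stays between 9.35 and 10.99 RPKM in NS and between 4.51 and 5.40 in 5dw, while the other 5 genes spread widely among the NS libraries.

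The NS libraries differed from each other in these genes far more than the wound libraries did. On RPKM + 0.5, the highest NS library was over 2 times the lowest for 23 of the 30 genes (76.7%), against 16.5% of all tested genes, with a median fold of 2.57 against 1.53. In 5dw this held for 1 gene, Hmgcs1 (3.33%, all genes 6.3%), and the median fold was 1.44 against 1.28. On RPKM itself the counts were 25 of 30 in NS (83.3%, all genes 25.5%) and 2 in 5dw, Hmgcs1 and Lss (6.67%, all genes 14.3%). After median-ratio scaling the NS count was 18 of 30 (60%, all genes 14.1%). The NS group has 6 libraries of both genotypes and the 5dw group has 5. NS libraries were made from 100 ng of RNA and 5dw libraries from 200 ng, so input cannot be told apart from tissue. WT 5dw libraries also had more mapped reads, 38740404 to 39702139 against 18649322 to 29718956 in NS. Those of Act 5dw, 20531292 and 25626302, were within the NS range. The part of input and depth in the spread was not tested. The order was much the same from gene to gene: Act NS replicate 1 was the lowest NS library for 28 of 30 genes (93.3%, all genes 50.9%), and for 22 of 30 after scaling (73.3%, all genes 18.2%). Srebf1 and Scap were the exceptions before scaling and were lowest in WT NS replicate 2. WT NS replicate 3 was the highest for 17 of 30 (56.7%, all genes 32.8%) and Act NS replicate 3 for 8 (26.7%, all genes 13.8%). The genes share their libraries, so these counts describe libraries and are not independent observations.

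Relative to the mean of the 6 NS libraries, the median gene of the 30 lay at -0.20, 0.27 and 0.57 on the log2 scale in WT NS and at -0.76, -0.12 and 0.29 in Act NS. In the wounds it lay at -0.62, -0.89 and -0.57 in WT and at -0.91 and -0.86 in Act. Act NS replicate 1 was therefore inside the range of the wounds by this measure. The median of the sebocyte genes was 2.39, 5.91 and 5.61 RPKM in WT NS, 0.542, 2.92 and 1.64 in Act NS, and 0.144 to 0.208 in 5dw. The sebocyte sum was 97.2, 148.8 and 153.2 RPKM in WT NS and 72.8, 152.3 and 224.4 in Act NS. Act NS replicate 1 was thus the lowest NS library by both measures as well as for the 30 genes, and WT NS replicate 1 was the second-lowest by the sum and for the 30 genes. Act NS replicate 3 was the highest by the sum and the second-lowest by the median. The keratinocyte sum of NS was lowest in WT replicate 1 and Act replicate 1, at 1304 and 1294 RPKM. The part of these cells in the spread was not tested. Without both libraries numbered 1, which were left out after their low values had been seen and so raise the mean of NS by construction, 27 of 30 genes were lower in WT 5dw (all genes 50.3%) and 26 in Act 5dw (all genes 44.1%). With median-ratio scaling in addition the counts were 20 (all genes 21%) and 12 (all genes 20.6%).

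**Figure D4:**
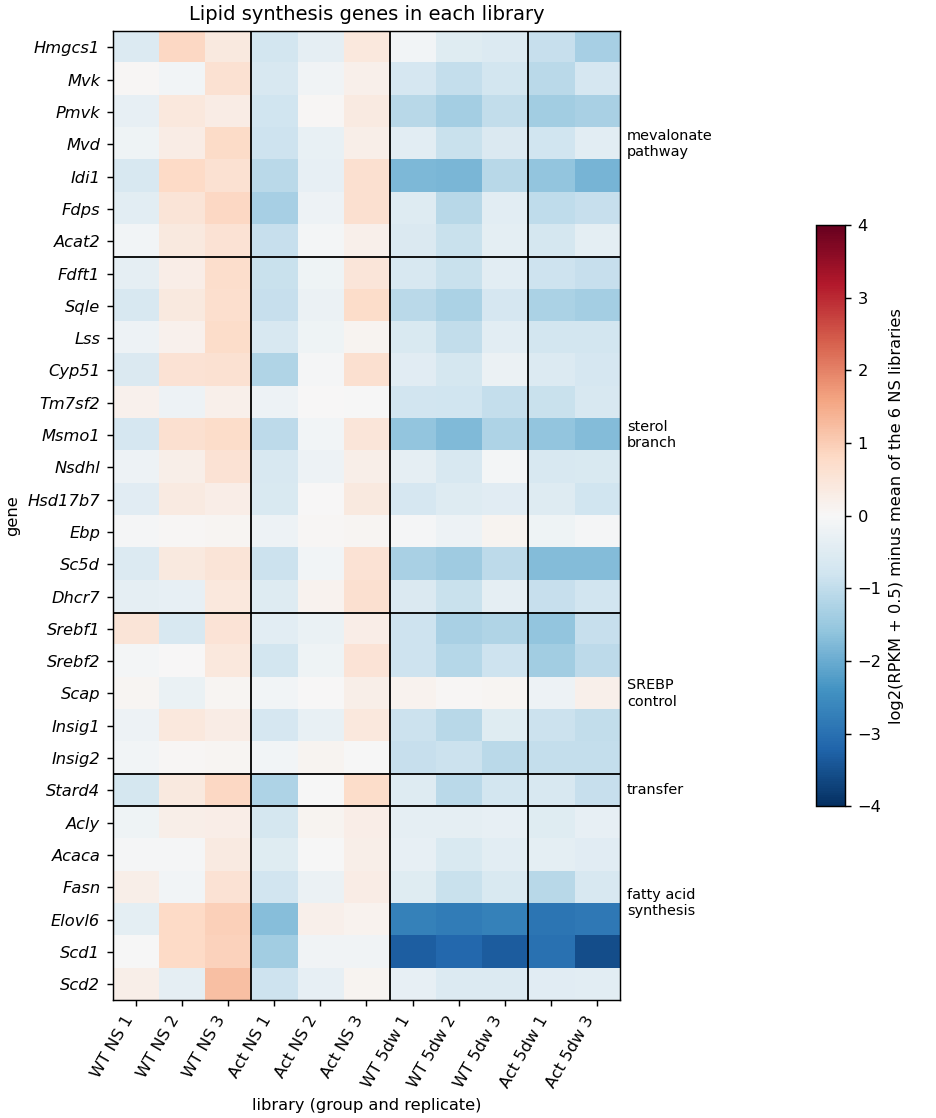
Log2(RPKM + 0.5) of each gene in each library relative to the mean of the 6 NS libraries (blue lower, red higher), with genes grouped by role and libraries by group. Act NS replicate 1 is blue for nearly all genes, WT NS replicate 3 is red, and Elovl6 and Scd1 are the darkest blue in all 5 wound libraries.

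Act and WT mice were compared within each tissue to see whether keratinocyte activin moved these genes. None of the 30 was called in Act NS against WT NS, where 0.0167% of all tested genes (2 genes) were called, nor in Act 5dw against WT 5dw (0.0334%, 4 genes), nor in the interaction of wounding and genotype (0%). At an unadjusted p under 0.05 there were 1, 0 and 1 of the 30 genes, against 824, 386 and 400 of all 11979 tested genes. In limma-voom on reads worked out from RPKM, 0 were also called in each. Same-numbered libraries of WT NS and Act NS also deviated together, and with the replicate block 0 were called in NS and 7 had an unadjusted p under 0.05. Without the block, the count of 1 in NS moved with single libraries. It was 15 when Act NS replicate 3 was left out and 9 for WT NS replicate 1. For WT NS replicate 2 it was 4 and for Act NS replicate 2 it was 2. The count of all tested genes at this threshold is not given for the fits with the block or without a library. Whether those counts are high therefore cannot be judged. The gene of lowest p in NS was Scd1, with 118 ± 37.1 RPKM (SD, n = 3) in WT and 55.3 ± 23.1 (n = 3) in Act. Its log2FC was -1.14 (SE 0.34, 95% interval -1.88 to -0.39, adjusted p = 0.679). All 3 Act NS libraries lay below all 3 WT NS libraries for Scd1. Sebocyte genes lay the same way, with a median log2FC of -1.15 over 9 tested genes, 7 of them at an unadjusted p under 0.05 and 0 called (Scd3 and Awat1 reached 1 RPKM in WT NS alone), and the keratinocyte genes had a median of 0.35. The part of these cells in the value of Scd1 was not tested. The median log2FC of the 30 genes was -0.369 in NS (all genes -0.107), and -0.238 after scaling. Act NS replicate 1 carried most of it, since the median without that library was -0.044 (all genes -0.042), while leaving out Act NS replicate 3 gave -0.649 and leaving out 1 of the WT NS libraries gave -0.598, -0.24 and -0.169 for replicates 1, 2 and 3.

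In 5dw the median was -0.118 (all genes -0.038), and the lowest p was that of Hmgcs1. This gene was at 44.1, 33.8 and 32.1 RPKM in WT wounds and at 24.5 and 18.6 in Act wounds. Both Act libraries lay below the WT libraries, at a log2FC of -0.75 (SE 0.39, 95% interval -1.62 to 0.11, adjusted p = 1). The Act 5dw group has 2 libraries, which limits what could be detected. Insig2 had the narrowest intervals, with a log2FC of -0.01 in NS (95% interval -0.26 to 0.24) and 0.00 in 5dw (interval -0.28 to 0.28). For Scd1 the interaction, the wounding log2FC in Act minus that in WT, was 1.13 (SE 0.51, 95% interval 0.01 to 2.24, adjusted p = 0.999). Its wound levels were 7.56 ± 0.511 RPKM (n = 3) in WT and 7.64 ± 2.14 (n = 2) in Act, so the means of the genotypes lay closer in 5dw than in NS. For Elovl6 the interaction was 0.75 (SE 0.70, interval -0.80 to 2.29). These comparisons share libraries with the wounding comparisons and with each other.

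Genes around the pathway gave a mixed picture. Their counts are read against the shares of all tested genes given above, 48.8% lower in WT and 36.5% in Act, or 22.2% and 20.8% after scaling. For genes that were higher these shares were 9.45% and 9.04%, or 22.4% and 19.9% after scaling. Of 15 regulators of sterol genes 14 were tested, and 10 were lower in 5dw of WT mice (71.4%) and 8 in those of Act mice (57.1%), with 0 higher. Nr1h3, the sterol sensor LXR alpha, was at 2.37 to 3.93 RPKM in NS and at 0.502 to 0.678 in 5dw, so it entered the test through NS alone. Nfya, a subunit of the CCAAT-binding factor NF-Y, had -1.35 and -1.24, and Sp1, which binds GC boxes, had -1.40 and -1.09, each called in both genotypes before and after scaling. Nfya was at 5.73 to 8.34 RPKM in NS and at 2.42 to 2.92 in 5dw, and Sp1 at 10.8 to 13.5 and at 4.03 to 5.86, so neither overlapped. After scaling the list had 1 higher and 3 lower in each genotype, and 3 of 14 (21.4%) was near the share of all genes.

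The isoprenoid branches, which lead from farnesyl diphosphate to other products, held few calls. Of 12 tested genes among 15, 0 were higher and 3 lower in WT (25%), and 1 was higher and 1 lower in Act (8.33%), below the shares of all genes. Dhdds, which makes dolichol precursors, was called lower in both, with -0.39 (SE 0.12, adjusted p = 0.0156) and -0.36 (SE 0.13, adjusted p = 0.0471). After scaling 6 were higher in each genotype (50%, all genes 22.4% in WT and 19.9% in Act) and 1 and 0 were lower. Dhdds was then at 0.04 in WT and -0.03 in Act. The direction in that list therefore depended on the scaling.

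For sterol transport, storage and breakdown, 20 of 21 genes were tested, with 3 higher and 9 lower in WT (45%) and 3 higher and 8 lower in Act (40%), near the shares of all genes. Cyp7b1, which hydroxylates oxysterols, was higher in 5dw, at 36.4 to 53.1 RPKM in WT wounds and 32.1 and 37.0 in Act wounds against 5.81 to 16.1 in NS. Its log2FC was 1.83 in WT (SE 0.35, adjusted p = 0.00123) and 1.84 in Act (SE 0.39, adjusted p = 0.00319). Tmem97, a sterol-responsive membrane protein, was higher by 0.88 (SE 0.24, adjusted p = 0.00856) and 1.39 (SE 0.26, adjusted p = 0.00185). Cyp27a1, the sterol 27-hydroxylase, was at 6.54 to 12.6 RPKM in NS and at 0.377 to 0.695 in 5dw, and it entered the test through NS alone. Nceh1, a cholesteryl ester hydrolase, had -1.35 and -1.36, and Osbpl5, an oxysterol-binding protein, had -1.08 and -1.09, all called. The split after scaling was 8 higher and 5 lower in WT (40% and 25%), and 6 and 5 in Act (30% and 25%). Of all genes 22.4% were then higher in WT and 19.9% in Act.

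Of 36 further genes of fatty acid metabolism 32 were tested, and 3 were higher and 22 lower in WT (68.8%) and 4 and 14 in Act (43.8%). After scaling 14 were lower in WT (43.8%) and 10 in Act (31.2%), and 4 were higher in each. Of the 32, Acacb, Acss2, Oxsm, Elovl3, Elovl7, Scd3 and Lpin1 were under 1 RPKM in every wound library and entered through NS alone, so the excess over the shares of all genes supports nothing. Elovl4, an elongase of very long chains known from epidermis, was at 5.52 to 30.8 RPKM in NS and at 0.408 to 1.34 in 5dw, with log2FC of -3.95 (SE 0.55, adjusted p = 2.02e-04) and -3.18 (SE 0.62, adjusted p = 0.00205). Mid1ip1, an activator of acetyl-CoA carboxylase, had -2.01 and -1.95, both called. Elovl5, Hacd1 and Fads3 went the other way in both genotypes. Elovl5, an elongase of polyunsaturated fatty acids, was at 19.6, 23.0 and 27.4 RPKM in WT NS, 14.8, 17.3 and 18.0 in Act NS, 30.6, 35.9 and 28.2 in WT wounds, and 33.2 and 26.3 in Act wounds. Its lowest wound library lay below the highest NS library. The log2FC was 0.43 in WT (SE 0.16, adjusted p = 0.0365) and 0.81 in Act (SE 0.18, adjusted p = 0.00411). Hacd1, a dehydratase of the elongation cycle, had 0.86 and 1.32, and Fads3, a sphingoid base desaturase, had 0.69 and 0.79, all called.

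For fatty acid oxidation 15 of 15 genes were tested, with 1 higher and 9 lower in WT (60%) and 0 and 6 in Act (40%). Hadh, Eci1 and Acadm, enzymes of mitochondrial beta-oxidation, had log2FC of -0.99, -0.73 and -0.73 in WT and -0.90, -0.59 and -0.43 in Act, all called. After scaling the counts were 4 higher and 3 lower in WT and 1 and 1 in Act, where the shares lower (20% and 6.67%) were near or below those of all genes.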

How the data were processed

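RNA of fibroblasts sorted from NS and 5dw of WT and Act mice was read after poly-A selection as stranded 100 bp reads. Alignment to GRCm38 and counting per gene were done by the authors in CLC Genomics Workbench, and the authors deposited RPKM values for 11 libraries, with 100 ng of RNA for NS and 200 ng for 5dw. The settings for strand and for reads that match several genes are not given in the sources used here. The authors tested with edgeR. Since RPKM are not counts, limma-trend (limma 3.58.1, R 4.3.3) was run here on log2(RPKM + 0.5) for the 11979 genes that reached 1 RPKM in 2 or more libraries, with 1 mean per group over all libraries (7 residual degrees of freedom, median prior 3.89). p-values were adjusted by Benjamini-Hochberg per comparison over all tested genes, with a threshold of 0.05.

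Mapped totals were worked out as the numbers that turn RPKM times GENCODE M21 exon length into whole reads, which held within 0.03 for 71.4% to 71.9% of genes above 0. Depth limits low genes, and elsewhere the number of libraries limits precision. The study counts the pools of a group as biological replicates, so p-values measure the spread between pools of 3 animals. What a replicate number stands for is not stated. Between WT NS and WT 5dw, same-numbered libraries had correlations of their deviations from the group means of 0.188, 0.12 and 0.109. Between WT NS and Act NS these were 0.554, 0.423 and 0.334. On these values the replicate block was tried, and its values stand beside the results they change. A pairing is not established, since the paper pooled animals from different sorting sessions. Over all groups 5 of 30 pairs of libraries with other numbers were over 0.1, up to 0.313, against 12 of 15 with the same number. Act 5dw has only 2 libraries that share a number with those of Act NS. No 2 libraries had identical values. The script was tested on simulated data. The 30 genes, the lists and the naming rule were chosen with earlier results of these data known. Genes given library by library are those called in both wounding comparisons without overlap, paralog pairs, the gene of highest level in a list with none, and the gene of lowest p between genotypes. Ebp, named after its values had been seen, and Elovl5, whose tissues overlapped, are exceptions to this rule. From other lists up to 3 called genes per direction are named. Alternatives were other pseudocounts, filters and scalings, a replicate block, only the groups compared, and each library left out. limma-voom on the worked-out reads and the fits without both NS libraries numbered 1 were added after seeing the data. Promoters came from RefSeq for GRCm38.p6.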

Additional observations from a re-analysis of the deposited data

How the results depend on the processing

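Sc5d, Insig2, Elovl6 and Scd1 were called lower in both genotypes in the reported fit and in all 23 alternatives, and Pmvk, Idi1 and Msmo1 in WT. Tm7sf2 was called in WT in the 22 alternatives in which it was tested, having passed the filter through NS alone. Counts of the 30 genes called lower in WT 5dw, 19 as reported, were 10 with median-ratio scaling (all genes 22.2%), 11 with quantile normalization (all genes 19.4%) and 11 with limma-voom and median-ratio scaling (all genes 23%), and they ran from 12 to 25 when 1 library at a time was left out (all genes 40.4% to 51.3%). In Act 5dw, 11 as reported, they were 7 with no filter on low values (26465 genes tested, 17.5% lower), 7 with median-ratio scaling (all genes 20.8%), 6 with quantile normalization (17.2%), 6 with limma-voom and median-ratio scaling (18%), and 26 without both NS libraries numbered 1 (44.1%), with a range of 4 to 22 when 1 library was left out (23.7% to 41.2%). Counts called higher in WT, 0 as reported, were 2, 1 and 2 under the same 3 scalings (all genes 22.4%, 20.4% and 22.8%). Without both NS libraries and with scaling the count was 2 (all genes 20.9%). These counts were thus below the shares of all genes. Ebp changed direction in WT, from -0.07 to 0.37 (adjusted p = 0.0135) with median-ratio scaling, 0.39 (adjusted p = 0.013) with limma-voom and scaling, and 0.34 (adjusted p = 0.0447) without both NS libraries and with scaling. With median-ratio scaling the median log2FC of all genes in WT went from -0.399 to -0.004. Single genes did not all move by the same amount: Ebp went from -0.07 to 0.37 and Lss from -0.90 to -0.593. The cause of the changed calls was not tested for any setting. No count between genotypes or in the interaction left 0 in any alternative that was run.

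With the replicate number as a block, 25 genes were lower in WT and 15 in Act. The numbers do not establish a pairing in either genotype. In Act, where only 2 same-numbered pairs exist, the genes gained were Mvk (adjusted p = 0.0131), Sqle (0.0165), Insig1 (0.0338) and Fasn (0.0272). In WT they were those given beside the results. The block changed no other call of the 30 genes. Over all groups 12 of 15 pairs of libraries with the same number had a correlation of deviations over 0.1, against 5 of 30 with other numbers. By the reads worked out from RPKM, depth limits Mvd, Tm7sf2 and Pmvk most, with 49, 51 and 70 reads in their lowest libraries. The reads of Mvd and Tm7sf2 did not come out whole in all libraries, so 49 and 51 are estimates.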
